A study of Mus musculus with 8 samples.

Results

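A set of 10 genes of type 2 cytokine reception and STAT signalling were followed in an H3K9ac data set of mouse ileal epithelium: the receptor chain genes Crlf2, Il4ra and Il13ra1, the kinase genes Jak1 and Tyk2, the transcription factor genes Stat6, Stat3 and Stat5b, and the inhibitor genes Socs1 and Cish. H3K9ac is acetylation of lysine 9 on histone H3, a mark of active promoters. The members were taken by gene name from the deposited table, which assigns each acetylated region to the gene with the nearest start site. All 10 genes had at least 1 region there, and together they had 12 of the 11251 regions. Stat3 and Stat5b had 2 regions each, and the other genes 1. The vehicle group was 3 libraries from wild-type C57Bl/6 mice given vehicle, and the butyrate group was 3 libraries from wild-type C57Bl/6 mice given 150 mM butyrate for 7 days. Each library was prepared from intestinal epithelial cells of the terminal ileum. The labels do not say whether each library was a separate mouse, and give no age or sex. The genes were chosen by name with their differences between butyrate and vehicle already known, the high value of Crlf2 and the low value of Stat6 among them. Those differences are therefore given as a description. The intervals rest on the spread between libraries, with each region's variance drawn by the fit toward a value set by all regions. The counts of calls stand beside those over all regions, and neither intervals nor counts are evidence of a difference.

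Type 2 cytokines such as IL-4, IL-13 and TSLP are made by immune and epithelial cells in worm infection and allergy. IL-13 binds a receptor built from IL-13Rα1 and IL-4Rα, and TSLP one built from CRLF2 and IL-7Rα. Janus kinases bound to the chains then phosphorylate STAT proteins, which enter the nucleus and bind paired half-sites of the form TTC and GAA. STAT6 carries most of the response to IL-4 and IL-13, and in the gut epithelium it drives the expansion of goblet and tuft cells. SOCS1 and CISH are induced by STAT proteins and dampen the same receptors. Butyrate, a short-chain fatty acid of gut bacteria, inhibits histone deacetylases.

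Levels are given in RPKM, a read number divided by region length and effective library size, so they can be compared between regions of different length. The libraries held 1255251 to 1828591 reads in regions. The RPKM values had nearly equal sums over regions in all of them, and how the effective library sizes were set is not given. Each difference below is therefore relative to the other regions, and a gain shared by all regions could not be seen. Differences on the log2(RPKM + 1) scale came from limma fitted to all 10529 regions with a mean of at least 1 RPKM, with SE and 95% intervals. This scale understates differences of weak regions. Of the 12 regions 10 entered that fit, and the intron regions of Stat3 and Stat5b fell below the minimum. Their values come from the same fit without it.

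None of the 12 regions was called different. Limma called 0 of the 10 tested at a Benjamini-Hochberg adjusted p of 0.05, and 0% of all tested regions. Its unadjusted p was under 0.05 at 1 of the 10, Crlf2, which was higher, as at 3.35% of all tested regions. Limma's voom on the reads recovered from the RPKM values called 0 of 12, against 0.142% of all regions, and its unadjusted p was under 0.05 in either direction at 3 of the 12 and at 9.49% of all regions. The authors' deposited table, at an FDR of 0.1, called 0 of 12 and 0.249% of all regions. In 2 regions, Crlf2 and the Stat3 promoter region, every butyrate library lay above every vehicle library, which held for 6.83% of all regions. In 2 others, Stat6 and Tyk2, every butyrate library lay below, which held for 7.35%. Nothing is read from these shares, since the same contrast was known when the genes were chosen. Of the 10 tested regions 6 had higher and 4 lower means in the butyrate group; the median of their log2 fold changes was 0.08, beside 0.00 over all tested regions.

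**Figure D1:**
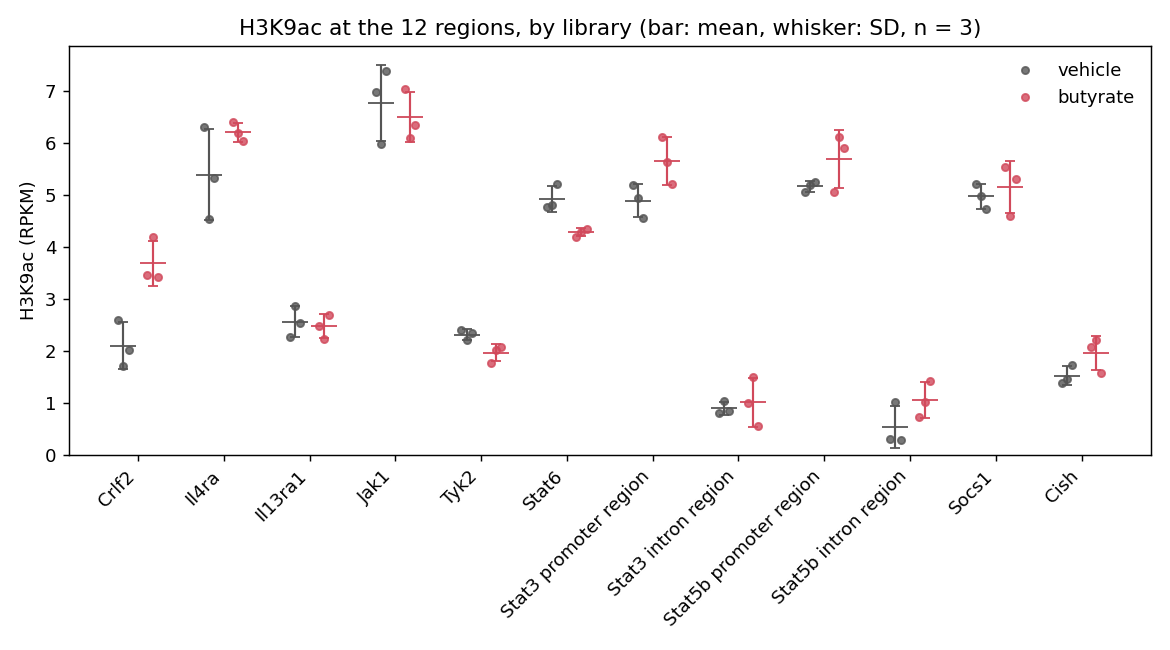
H3K9ac in RPKM at the 12 regions of the 10 genes. Each point is 1 library, grey for vehicle and red for butyrate; the long bar is the group mean and the whisker the SD (n = 3). The groups are apart at Crlf2, Tyk2, Stat6 and, by 0.00503 RPKM, the Stat3 promoter region, and overlap at the other 8.

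Crlf2 encodes the TSLP-specific receptor chain, and its region was the one with the furthest difference among the 10 tested. It measured 626 bp (chr5:109558622-109559248, mm10) and ran from -255 to 370 bp around the RefSeq start site (positive inside the gene), over 2 GENCODE protein-coding starts. Vehicle libraries S1 to S3 had 2.60, 1.70 and 2.01 RPKM, and butyrate libraries S4 to S6 had 3.46, 4.19 and 3.41 RPKM. All butyrate values lay above all vehicle values, with a gap of 0.806 RPKM between the groups. The means were 2.10 ± 0.457 and 3.68 ± 0.440 RPKM (SD, n = 3 each), a ratio of 1.75. On the log2 scale the difference was 0.60 ± 0.13 (SE), with a 95% interval of 0.32 to 0.88. In absolute size it exceeded that of 99.7% of tested regions, a rank that was known when the gene was picked. These values rested on few reads, 42, 19 and 26 in vehicle and 48, 47 and 48 in butyrate. Counting of reads alone would give SDs of 0.395 and 0.537 RPKM, close to the SDs observed. Leaving out 1 library at a time gave log2 fold changes of 0.51 to 0.71. By voom, which does not add 1 RPKM, the log2 fold change was 0.76 ± 0.27 (SE).

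The 250 bases before the Crlf2 start are shown because its acetylated region covers all of them, with those of Stat6 and Stat3, the other promoters inside regions whose groups did not overlap. The sequences are from RefSeq (GRCm38.p6) and read toward the gene, and capitals mark GGGCGG, a binding site form of Sp family factors, and CCAAT, that of NF-Y, on either strand.
Crlf2 promoter, chr5:109558994-109559243, minus strand: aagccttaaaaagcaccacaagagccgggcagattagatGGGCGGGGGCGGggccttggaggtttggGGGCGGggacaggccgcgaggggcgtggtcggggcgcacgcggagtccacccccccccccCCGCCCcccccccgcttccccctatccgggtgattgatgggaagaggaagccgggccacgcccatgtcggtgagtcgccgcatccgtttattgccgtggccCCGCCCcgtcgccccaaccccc
Stat6 promoter, chr10:127642736-127642985, plus strand: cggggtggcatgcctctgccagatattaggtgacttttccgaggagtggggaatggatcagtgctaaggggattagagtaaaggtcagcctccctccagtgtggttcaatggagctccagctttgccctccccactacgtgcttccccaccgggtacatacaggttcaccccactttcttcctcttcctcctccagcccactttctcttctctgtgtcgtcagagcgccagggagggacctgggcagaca
Stat3 promoter, chr11:100939541-100939790, minus strand: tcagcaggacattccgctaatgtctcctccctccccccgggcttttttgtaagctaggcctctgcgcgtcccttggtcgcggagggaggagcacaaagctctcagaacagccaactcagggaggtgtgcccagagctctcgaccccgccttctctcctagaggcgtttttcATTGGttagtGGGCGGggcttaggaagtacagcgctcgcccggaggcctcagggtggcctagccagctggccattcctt

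Crlf2 had 5 GGGCGG matches in these bases and no CCAAT. Stat3 had 1 of each, and Stat6 had neither. Over all 32851 RefSeq promoters of this length, 32.7% held GGGCGG and 33.8% CCAAT. The G+C share was 71.6% at Crlf2, 60.8% at Stat3 and 56.8% at Stat6, beside a median of 52.4% over all promoters. The observed to expected ratio of CG dinucleotides was 0.75, 0.564 and 0.299 in the same order, beside a median of 0.374. Stat6 alone of these 3 was thus poorer in CG than the median promoter. The promoters compared include those of genes without an acetylated region.

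Il4ra encodes the signalling chain shared by IL-4 and IL-13. Its region (chr7:125552064-125553817, 1753 bp) held 5 GENCODE transcript starts, 3 of them protein-coding, and was centred in an intron, per the authors' deposited table. The vehicle values were 6.30, 4.54 and 5.33 RPKM and the butyrate values 6.40, 6.18 and 6.03 RPKM. Vehicle library S1 lay among the butyrate libraries, so the groups overlapped. The means of 5.39 ± 0.882 and 6.20 ± 0.186 RPKM gave a log2 fold change of 0.18 ± 0.10 (95% interval -0.03 to 0.39). The value depended on the vehicle libraries, being 0.28 without S1 and 0.08 without S2.

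Il13ra1 encodes the chain that joins IL-4Rα in the IL-13 receptor. Its region (chrX:36111860-36113841, 1981 bp) held 1 GENCODE start and was likewise centred in an intron. It had 2.27, 2.86 and 2.54 RPKM in vehicle and 2.48, 2.23 and 2.69 RPKM in butyrate. The groups overlapped almost wholly, with means of 2.56 ± 0.294 and 2.47 ± 0.232 RPKM. The log2 fold change of -0.04 ± 0.12 had a 95% interval of -0.29 to 0.22, and its sign turned without S2 or without S5. In RPKM, Il4ra had more than 2 times the level of its partner Il13ra1, 5.80 against 2.51 over the 6 libraries. No library of Il4ra overlapped one of Il13ra1. Il13ra1 lies on the X chromosome and Il4ra on an autosome, and the labels give no sex. Neither copy number nor input entered these values, and what part they had was not tested.

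**Figure D2:**
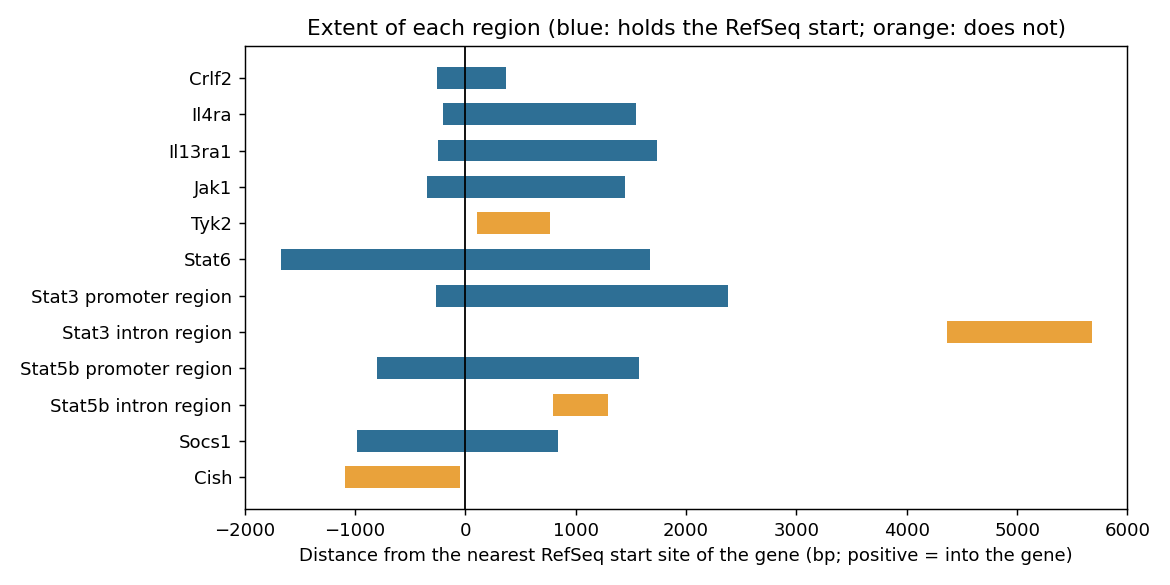
Extent of the 12 regions in bp from the nearest RefSeq start site of their gene, positive values lying inside the gene. Blue bars hold that start site (8 regions) and orange bars do not (4 regions: Tyk2, Cish and the intron regions of Stat3 and Stat5b).

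Jak1 encodes a kinase that binds IL-4Rα and many other cytokine receptor chains, and it had the densest region of the 10 genes. The region (chr4:101263773-101265575, 1802 bp) held 5 GENCODE transcript starts, 2 of them protein-coding. Its values were 6.97, 5.97 and 7.38 RPKM in vehicle and 7.03, 6.10 and 6.34 RPKM in butyrate. The groups overlapped, and the means of 6.77 ± 0.726 and 6.49 ± 0.480 RPKM differed by less than the SD of either group. Its log2 fold change was -0.05 ± 0.09 (95% interval -0.24 to 0.14), and without S3 it was 0.01.

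Tyk2 encodes the kinase that binds IL-13Rα1 and the interferon receptors. Its region (chr9:21130511-21131173, 662 bp) lay in an intron, from 102 to 763 bp inside the gene, and held no annotated start. Vehicle libraries had 2.40, 2.20 and 2.34 RPKM and butyrate libraries 1.77, 2.02 and 2.08 RPKM. The groups were apart by 0.121 RPKM, with means of 2.31 ± 0.102 and 1.96 ± 0.165 RPKM. The region had a mean of 30.0 reads per library, for which counting alone would give SDs of 0.407 and 0.379 RPKM, larger than those observed and larger than the difference of the means. Its log2 fold change was -0.16 ± 0.12 (95% interval -0.43 to 0.10).

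Stat6 encodes the factor that IL-4 and IL-13 activate, and its region was the longest of the 12. It spanned 3342 bp (chr10:127641316-127644658), the 90.1 percentile of region length, and reached from -1669 to 1672 bp around the start site. Vehicle libraries had 4.77, 4.80 and 5.21 RPKM and butyrate libraries 4.19, 4.29 and 4.35 RPKM. Every butyrate library was below every vehicle library, with a gap of 0.419 RPKM. The means were 4.92 ± 0.249 and 4.28 ± 0.0776 RPKM, a ratio of 0.869 on a mean of 325 reads. The log2 fold change of -0.17 ± 0.09 had a 95% interval of -0.35 to 0.02. Leaving out libraries gave -0.18 to -0.13.

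Stat3, which encodes the factor used by IL-6, IL-10 and IL-22, had 1 region at the promoter and 1 in an intron. The promoter region (chr11:100937157-100939807, 2650 bp, 4 protein-coding starts) had 5.19, 4.93 and 4.56 RPKM in vehicle and 6.12, 5.63 and 5.20 RPKM in butyrate. The groups were apart by only 0.00503 RPKM, between vehicle S1 and butyrate S6. The means of 4.89 ± 0.315 and 5.65 ± 0.463 RPKM gave a log2 fold change of 0.17 ± 0.09 (95% interval -0.02 to 0.36). The intron region (chr11:100933862-100935172, 1310 bp) lay 4368 to 5677 bp inside the gene and was far weaker. It had 0.799, 1.03 and 0.849 RPKM in vehicle and 0.998, 1.49 and 0.543 RPKM in butyrate. The butyrate libraries lay on both sides of the vehicle libraries, and the log2 fold change was 0.06 ± 0.21, or -0.11 without S5. The log2 fold changes of the Stat3 promoter region and of Stat6 were of opposite sign and like size. Both 95% intervals held values of either sign, and neither region was called different.

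Stat5b encodes a factor activated by TSLP and growth hormone. Its promoter region (chr11:100849009-100851382, 2373 bp) had 5.05, 5.19 and 5.24 RPKM in vehicle and 5.05, 6.12 and 5.90 RPKM in butyrate. Butyrate libraries S5 and S6 lay above the vehicle libraries, and S4 was level with the lowest of them. The means were 5.16 ± 0.101 and 5.69 ± 0.563 RPKM (log2 fold change 0.12 ± 0.09, 95% interval -0.07 to 0.30). The intron region (chr11:100821277-100821777) had the minimum length of 500 bp and lay 793 to 1292 bp past a second RefSeq start of the gene. It held 4, 9 and 3 reads in vehicle and 8, 9 and 16 in butyrate, or 0.310, 1.01 and 0.290 against 0.721, 1.01 and 1.42 RPKM. Vehicle library S2 lay within the butyrate range. The ratio of its means, 1.96, was the furthest from 1 of the 12 regions and rested on the fewest reads. The log2 fold change was 0.43 ± 0.24 on the log2(RPKM + 1) scale and 1.15 ± 0.55 by voom.

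Socs1 encodes an inhibitor that binds Janus kinases. Its region (chr16:10784695-10786518, 1823 bp) ran from -982 to 840 bp around the start site. It had 5.21, 4.98 and 4.72 RPKM in vehicle and 5.54, 4.59 and 5.31 RPKM in butyrate. The groups overlapped, with means of 4.97 ± 0.243 and 5.15 ± 0.492 RPKM. The log2 fold change was 0.04 ± 0.09 (95% interval -0.15 to 0.23), and it was -0.01 without S4.

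Cish encodes an inhibitor that is induced by STAT5. Its region (chr9:107295568-107296607, 1039 bp) held a GENCODE start and ended at -52 bp from the RefSeq start, and it also overlapped Gm17040. The values were 1.38, 1.46 and 1.72 RPKM in vehicle and 2.08, 2.20 and 1.58 RPKM in butyrate. Butyrate S6 lay inside the vehicle range and the other butyrate libraries above it. The means of 1.52 ± 0.180 and 1.96 ± 0.329 RPKM gave a log2 fold change of 0.23 ± 0.15 (95% interval -0.10 to 0.55), on a mean of 37.8 reads. Both inhibitor genes had higher means with butyrate, and in both the groups overlapped.

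**Figure D3:**
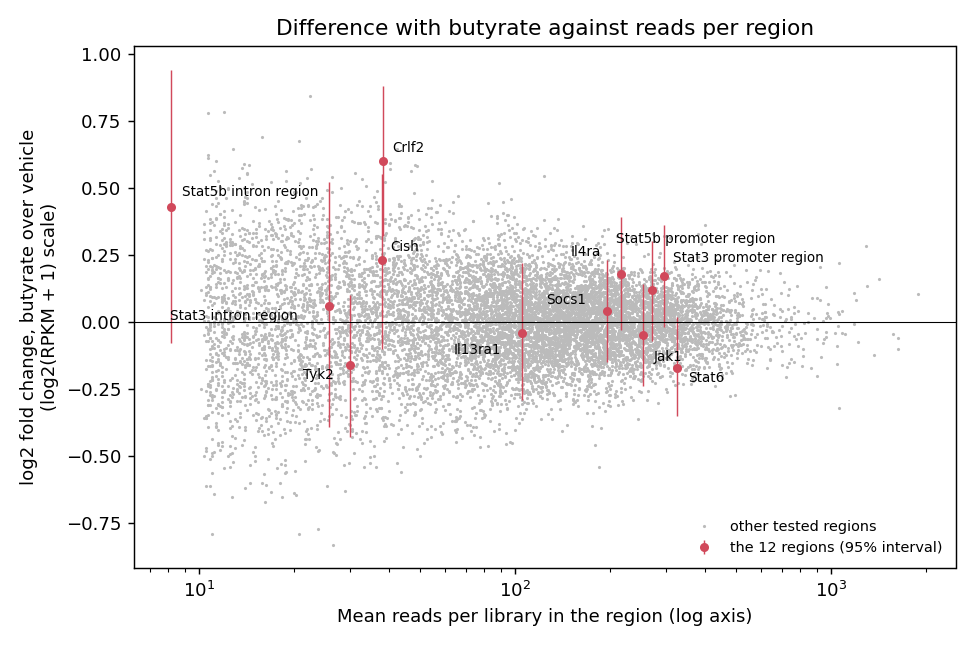
Log2 fold change of butyrate over vehicle, on the log2(RPKM + 1) scale, against mean reads per library (log axis). Grey points are the tested regions and red points the 12 regions with 95% intervals; the intron regions of Stat3 and Stat5b were not among those tested. Crlf2, at 38.3 reads and 0.60, is the highest red point, and this value was known when the gene was picked.

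The 12 regions lay between the 1.33 and the 97.5 percentile of acetylation level in the table. In mean RPKM over the 6 libraries Jak1 came first (6.63 ± 0.572, SD over 6), followed by Il4ra (5.80 ± 0.724), the Stat5b promoter region (5.42 ± 0.463), the Stat3 promoter region (5.27 ± 0.544), Socs1 (5.06 ± 0.361) and Stat6 (4.60 ± 0.390). These 6 genes lay between the 83.7 and the 97.5 percentile of all regions. A wide gap of 1.71 RPKM followed, and below it came Crlf2 (2.89 ± 0.955), Il13ra1 (2.51 ± 0.242), Tyk2 (2.14 ± 0.230) and Cish (1.74 ± 0.337), all 4 under the median region of 3.09 RPKM. Neighbours in this order from Il4ra down to Socs1, and Crlf2 and Il13ra1, differed by less than the larger of their SDs. The intron regions of Stat3 (0.951) and Stat5b (0.793) were last, at the 4.78 and the 1.33 percentile. They too differed by less than the larger of their SDs (0.158 against 0.442 RPKM).

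**Figure D4:**
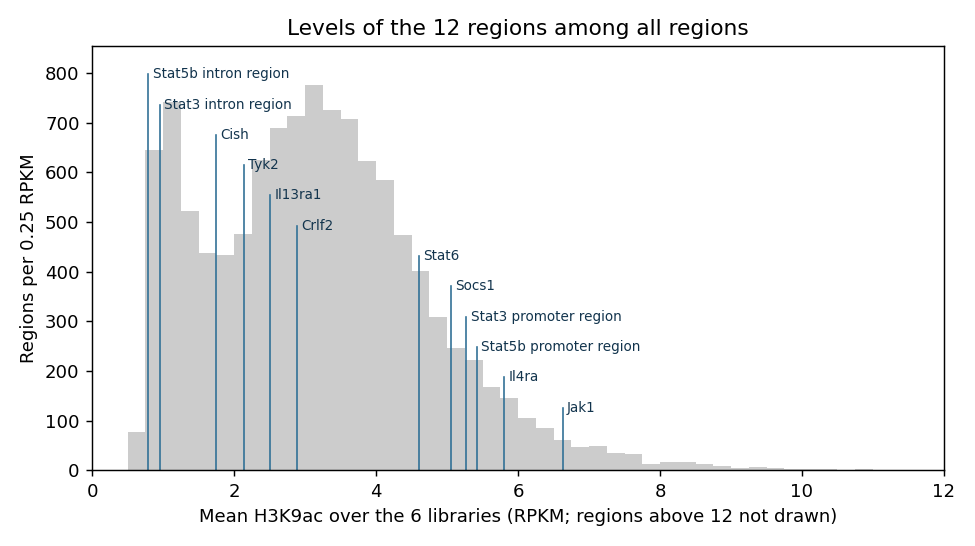
Histogram of mean H3K9ac over the 6 libraries for all 11251 regions, in RPKM, with a blue line for each of the 12 regions. Jak1, Il4ra, Stat5b, Stat3, Socs1 and Stat6 stand in the upper tail at 4.60 to 6.63 RPKM, while Crlf2, Il13ra1, Tyk2 and Cish lie under the median of 3.09; the 3 regions above 12 RPKM are not drawn.

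The sequence under the regions was searched for 2 STAT site forms, which read the same on both strands: TTCNNNGAA, bound by most STAT proteins, and the wider spacing that STAT6 prefers, TTC and GAA with 4 bases of any kind between. The narrow form occurred 5 times in 4 of the 12 regions, or 0.252 per kb, and in 34.7% of all regions at 0.286 per kb. The wide form occurred 8 times in 6 of the 12 regions, or 0.403 per kb, and in 31.0% of all regions at 0.247 per kb. The Crlf2, Il4ra and Tyk2 regions and both Stat5b regions had neither form. The 8 wide sites are printed with 10 bases on either side (GRCm38), along the strand of the gene and with the site in capitals, because they show which members carry the STAT6 spacing under acetylated chromatin.
Jak1, chr4:101264362-101264391, minus strand: cctctgtgatTTCTCGGGAActaggactgg
Stat6, chr10:127643563-127643592, plus strand: atggctgcctTTCCCTAGAAgttgatgctc
Stat3, chr11:100934952-100934981, minus strand: atatcttaagTTCTTAGGAAaaggtccaag
Stat3, chr11:100938638-100938667, minus strand: ctagatttttTTCTTAAGAAtcagatttcc
Socs1, chr16:10786080-10786109, minus strand: aggccaccgcTTCCTGGGAAgcccaagcca
Socs1, chr16:10786112-10786141, minus strand: cgccttaggcTTCCTTTGAAgcctctgcgg
Socs1, chr16:10786164-10786193, minus strand: cccgcccggtTTCCGAGGAActaggccggg
Cish, chr9:107295790-107295819, plus strand: tagctaccctTTCTGAGGAAcgtgggtggt

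Socs1 held 3 of the 8, centred at -559, -591 and -643 bp from its start site, and a narrow site stood nearer, at -449 bp.
Socs1, chr16:10785971-10785999, minus strand: gctagccgggTTCCAAGAAgggtcgagat

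Stat6 had 1 wide site under its own region, 592 bp inside the gene. Stat3 had 1 in each of its regions, at 887 and 4573 bp. At Cish the RefSeq start itself carried the narrow form TTCCTGGAA with a further copy, TTCTTGGAA, 11 bp on, and both lay past the end of the acetylated region. In the 250 bases before to 50 bases after the start, Cish was the 1 of 11 promoters of the 10 genes with the narrow form, found in 8.3% of all promoters, and 0 of 11 held the wide form, found in 6.95%. GGGCGG was present in 9 of the 11, against 35.7% of all promoters, and CCAAT in 6, against 37.4%. All 10 genes had an acetylated region, whereas all promoters include those of genes without one. These shares therefore do not set the 10 genes apart from other acetylated genes. The promoters of Stat6 and of the second Stat5b start lacked GGGCGG. A match is a description of the letters and does not show binding.

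The rest of the pathway was read from lists of 69 other genes, chosen with earlier results of these data known. Of these, 41 had a region by name, with 54 regions in all, and 50 were tested. Limma called 0 of the 50 and voom 0 of the 54. Unadjusted limma p-values were under 0.05 at 1 higher and 3 lower regions, where all tested regions gave 3.35% higher and 3.91% lower; voom gave 9 of 54 at that level in either direction, and 9.49% of all regions. In 5 of the 54 every butyrate library lay above every vehicle library, and in 6 below, beside 6.83% and 7.35% of all regions. The median log2 fold change was 0.03, with 28 higher and 22 lower, and it turned to -0.02 without S2 or S6 and to -0.01 without S4.

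Among 7 ligand and alarmin genes, Tslp, Il33 and Il9 had regions, and Il4, Il5, Il13 and Il25 had none. Il33, an epithelial alarmin, had 1.62 ± 0.110 RPKM in vehicle and 1.25 ± 0.139 in butyrate, with all butyrate libraries lower (log2 fold change -0.22 ± 0.16, limma unadjusted p 0.178, adjusted p 0.761). Tslp, the ligand of the Crlf2 receptor, had 1.44 ± 0.305 and 1.63 ± 0.274 RPKM with overlapping groups (0.11 ± 0.17, unadjusted p 0.504, limma adjusted p 0.894). The Il9 region averaged 7.17 reads and was not tested; all 3 of its butyrate libraries lay above its vehicle libraries.

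Of 19 other receptor chain genes 11 had a region. Il7r, the partner of Crlf2 in the TSLP receptor, had none, and neither had Il2rg, the common gamma chain of the other IL-4 receptor, nor the IL-13 decoy receptor gene Il13ra2. Il10ra, Il1rl1, Il6ra, Lifr and Osmr were also without one. The 11 tested regions were 6 higher and 5 lower (median 0.01). The smallest p was at Ifnar1, an interferon receptor chain whose protein binds TYK2, with 4.04 ± 0.259 RPKM in vehicle and 3.32 ± 0.299 in butyrate (-0.22 ± 0.10, limma unadjusted p 0.0464, adjusted p 0.669). Il17ra, the chain shared by IL-25 and IL-17 receptors, followed with -0.21 ± 0.13 (limma adjusted p 0.731). The genes with a region also included Ifnar2, Ifngr1, Ifngr2, Ifnlr1, Il10rb, Il17rb, Il1rap, Il22ra1 and Il6st.

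Among the other Janus kinase and STAT genes, Jak2, Jak3, Stat2 and Stat5a had regions and Stat4 had none. Jak3, the kinase of the common gamma chain, had 3.35, 4.21 and 3.31 RPKM in vehicle and 1.87, 2.94 and 2.84 RPKM in butyrate. All 3 butyrate libraries were lower, and the log2 fold change was -0.39 ± 0.14 (limma unadjusted p 0.0144, adjusted p 0.59). Stat2 had -0.12 ± 0.12 (limma adjusted p 0.827).

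All 14 other inhibitor genes had a region: Socs2 to Socs7, Ptpn1, Ptpn2, Ptpn6, Ptpn11 and Pias1 to Pias4. Of 17 tested regions 11 were higher and 6 lower (median 0.05). Socs6 had 3.78 ± 0.739 RPKM in vehicle and 4.63 ± 0.227 in butyrate (0.25 ± 0.12, limma unadjusted p 0.0538, adjusted p 0.697). A Socs3 region at -1017 bp had 2.10 ± 0.126 and 2.56 ± 0.0284 RPKM (0.20 ± 0.12, limma adjusted p 0.725), whereas the region at the start had 5.38 ± 0.402 and 5.17 ± 0.717. Among 9 adaptor and coactivator genes 8 had regions and Irs1 had none; besides Grb2 and Ncoa1 these were Crebbp, Ep300, Irs2, Parp14, Pik3r1 and Shc1. Their 14 tested regions were 8 higher and 6 lower (median 0.06). The smallest p-values were at distal regions, Grb2 at -18792 bp (-0.62 ± 0.23, limma unadjusted p 0.0179, adjusted p 0.596, on 14 reads) and Ncoa1 at 45970 bp (0.40 ± 0.17, unadjusted p 0.0374, limma adjusted p 0.655).

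**Figure D5:**
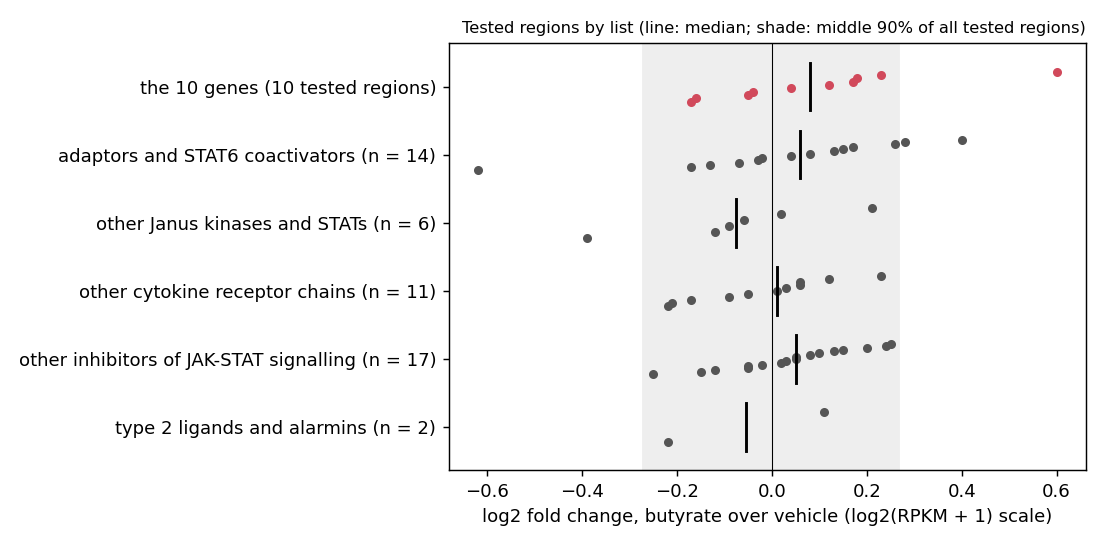
Log2 fold change of butyrate over vehicle, on the log2(RPKM + 1) scale, for the tested regions of the 10 genes (red) and of 5 lists of other pathway genes (grey), with the median of each as a black line and the middle 90% of all tested regions shaded (-0.27 to 0.27). Of the 10 red points 9 lie inside the shade, and Crlf2 at 0.60 lies outside it.

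None of 14 genes that type 2 cytokines induce in epithelia had a region by name, nor did a region of another name overlap any of them: Retnlb, Clca1, Muc2, Fcgbp, Arg1, Ccl11, Ccl24, Alox15, Postn, Cdh26, Sprr2a1, Ang4, Pou2f3 and Dclk1. No difference between the groups could therefore be measured at these responder genes.

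Markers set the cell types beside these values. All 12 epithelial marker genes (Epcam, Cdh1, Krt8, Krt18, Krt19, Krt20, Vil1, Cldn7, Elf3, Cdx1, Cdx2 and Hnf4a) and all 7 enterocyte genes (Fabp2, Apoa1, Apoa4, Apoc3, Alpi, Sis and Lct) had regions. The summed epithelial level was 75.7 to 81.8 RPKM in vehicle and 71.9 to 79.8 in butyrate, and the summed enterocyte level 25.7 to 26.6 and 23.3 to 24.0. The enterocyte sums did not overlap, and 7 of the 8 enterocyte regions had lower means with butyrate. Over all tested regions 5268 log2 fold changes were higher and 5261 lower. The regions of Apoa1 and Apoa4 and both of Apoc3 lie together on chromosome 9 (46227551 to 46244323), so the 8 regions are not separate loci. The sums were not taken without them. Among the 8 the groups were apart at 1 above (Fabp2) and 2 below (Apoa1 and the Apoc3 region at -681 bp). Over all regions the shares were 6.83% and 7.35%. The groups overlapped at Alpi, Sis, Lct, Apoa4 and the other Apoc3 region. What part the enterocyte values had in those of the 10 genes was not tested. Of the 18 epithelial regions 8 had higher and 10 lower means with butyrate. The groups were apart at 2 above (Epcam and Krt20) and 2 below (Elf3 and Cdh1), beside 6.83% and 7.35% of all regions. Epcam, Krt20 and Cdh1 are named after their values were seen. The smallest p-values in these lists were at Elf3 (-0.20 ± 0.08, limma adjusted p 0.638) and Krt19 (-0.22 ± 0.11, limma adjusted p 0.703), and at 2 regions of Apoc3 (-0.52 ± 0.18, limma adjusted p 0.572, and -0.22 ± 0.12, limma adjusted p 0.703). Goblet cells were represented by Agr2 alone (0.20 ± 0.21, limma adjusted p 0.852) of 6 genes. Tuft cells were represented by Gfi1b and a region 10070 bp into Trpm5 of 6 (Trpm5 -0.22 ± 0.17, limma adjusted p 0.786). Paneth and enteroendocrine cells had 0 of 5 and 0 of 4 genes with a region by name. A region named Cdhr5 did lie over the enteroendocrine gene Sct and a start of it.

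Leukocytes also express Crlf2, Il4ra and Stat6. Of 22 immune marker genes 5 had a region by name, Ptprc, Laptm5, Cd2, Cd3d and Ms4a1, the last 33851 bp from its start. All 7 myeloid genes had none by name, though regions named Csrnp1 and Gorasp1 overlapped Cx3cr1 away from its starts. The summed level of the 5 genes with a region was 6.75 to 7.69 RPKM in vehicle and 6.22 to 7.78 in butyrate, and these ranges overlapped. At Ms4a1 all butyrate libraries were lower, and at the others the groups overlapped. Laptm5 had 0.14 ± 0.20 (limma adjusted p 0.892), Cd2 -0.40 ± 0.21 (limma adjusted p 0.703) and Ms4a1 -0.16 ± 0.11 (limma adjusted p 0.756); Ptprc and Cd3d were below the minimum level. Stromal and endothelial genes had regions at Vim (-0.22 ± 0.24, limma adjusted p 0.852) and, at -64806 bp, Cdh5 (-0.06 ± 0.15, limma adjusted p 0.943), of 8. In such bulk libraries fewer cells of a type and less acetylation per cell cannot be told apart.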

How the data were processed

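H3K9ac chromatin immunoprecipitation and sequencing was used for 3 vehicle and 3 butyrate libraries; the 2 input libraries were not analysed here. Per the submitters' processing notes the build was mm10, and STAR, Picard, HOMER and, among the authors' tools, edgeR were used, with no version or role. How regions were called and counted is not given in the sources used here.

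The deposited RPKM values of the authors were examined in the file: each is a read number divided by the length of its region (end minus start) and by an effective library size, and undoing that scaling gave whole reads for 100.0% of values (tolerance 0.01). The deposited log2 fold changes and the FDR, a p-value adjusted by the authors, were used only for their calls. Column names gave each library's group (vehicle for S1, S2 and S3) but not its sample. Limma 3.58.1 (R 4.3.3) was fitted to log2(RPKM + 1), pseudocount 1, with intensity trend and robust empirical Bayes, over the 10529 regions with a mean of at least 1 RPKM, with Benjamini-Hochberg adjustment over all of them. Voom used the recovered reads, with effective library sizes, on all regions and, chosen after seeing the data, on those with at least 25 mean reads. The fits were tested on simulated data. The planned edgeR test of the recovered reads was not run; voom is the count-based test given.

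Starts came from RefSeq (GRCm38.p6) and GENCODE M21; all 10 genes matched the RefSeq promoter table, with 11 promoters. Each region of the 10 genes is named, and from each other list the genes with a region, except 1 gene not reported here, with values for the 2 smallest unadjusted p-values. The Socs3 start region was added after its values were seen. The genes and lists were chosen with earlier results of these data known. P-values and intervals rest on the spread between libraries, with each region's variance drawn toward a value set by all regions. That spread may be technical.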

Additional observations from a re-analysis of the deposited data

How the results depend on the processing

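Limma on log2(RPKM + 1) called 0 regions over the whole table with pseudocounts of 0.5 and 2, without the filter, with rescaled libraries, at a threshold of 0.1 and without any 1 library, whereas voom called 16 on all regions and 9 on those with at least 25 mean reads; the cause was not tested. None of the 12 regions and none of the pathway regions was called under any of these. Of 131 recomputed log2 fold changes of the 12 regions, 128 moved by less than the SD between replicates. The others were by voom, -0.25 for Tyk2 on all regions and on those with at least 25 reads, and 1.15 for the Stat5b intron region. Voom does not add 1 RPKM, so its values for weak regions are not on the same scale. Signs turned with a library left out at Il13ra1, Jak1, Socs1 and the Stat3 intron region. Over the 250 bases before the start alone, 0 of the 11 promoters held TTCNNNGAA against 1 with the 50 bases after it, since the Cish matches begin at the start. Counts of regions with groups apart were 3 above and 2 below without any 1 library. Leaving out a library can only keep or add such regions, so these counts do not test stability. They stand without a share over all regions. The planned edgeR test was not run. No paired analysis was possible because the columns carry a group and no replicate number of the labels. Counting error limits Crlf2, Tyk2, Cish and both intron regions, with 8.17 to 38.3 mean reads.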
